A study of Mus musculus with 6 samples.

Results

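MicroRNA precursor loci are short annotated genes from which microRNAs are cut. In ribosome-associated RNA of medial prefrontal cortex (mPFC) D2 neurons, 24 of 1185 such loci had a mean of at least 1 FPKM over 6 libraries (FPKM, fragments scaled to the length of the transcript and the number mapped in the library). The loci were found by gene symbol (Mir followed by a number, or Mirlet7), host genes ending in hg were left out, and values of transcripts with the same gene identifier were added. Of the other 1161 loci, 445 were above 0 in at least 1 library and 716 were listed at 0 in every library. The members were thus chosen by their own mean level, which is a description and no result. Mir3060 stood just inside the threshold with a mean of 1.01 FPKM, and Mir544 just outside with 0.993 FPKM. This bears on the comparison, since 6 members had a Ctrl mean under 1 FPKM and 6 others a Gsk3sKO mean under 1 FPKM, so that 12 of the 24 entered through 1 group only.

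The study compared adult male C57BL/6 mice in 2 groups of 3 libraries. All mice carried a D2Cre bacterial artificial chromosome transgene, a Cre-dependent Flag-Cas9 at Rosa26 and the RiboTag allele, which puts a hemagglutinin tag on the ribosomal protein Rpl22 in Cre-expressing cells. Ctrl mice received AAV GFP in the mPFC, a virus without a guide RNA, and Gsk3sKO mice received AAV Gsk3 sgRNA/GFP, which directs Cas9 to Gsk3b. Ribosomes of tagged cells were immunoprecipitated, and total RNA libraries were made from the bound RNA with a stranded kit. Whether a library came from 1 animal or from a pool is not given in the sources used here, so the unit behind each p-value is the library. In the main test the estimate of spread between libraries is partly shared over all genes fitted.

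A primary microRNA transcript is cut in the nucleus by Drosha and Dgcr8 into a hairpin, which Xpo5 exports and Dicer1 trims to a mature strand of little more than 20 bases. An Argonaute protein holds that strand and finds target mRNAs through its seed, the bases 2 to 8. Many precursors lie in introns or exons of longer host genes, and a total RNA library with ordinary fragment lengths reads the host transcript, the primary transcript or another small RNA at the same place rather than the mature strand. An FPKM at a precursor locus is therefore an RNA level over the locus, not a level of the mature microRNA.

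The depth, estimated from the spacing of low FPKM values, was 45.2, 31.9 and 23.5 M fragments in Ctrl replicates 1 to 3 and 41.3, 28.8 and 30.1 M in Gsk3sKO replicates 1 to 3. Between 15.1% and 23.8% of low values lay within 0.01 of a whole number of such steps, so fragment numbers given here are approximate. The targeted gene, Gsk3b, had 35.6, 53.8 and 56.5 FPKM in Ctrl and 36.9, 37.0 and 33.6 FPKM in Gsk3sKO, and its groups overlapped. In mPFC sections the study assessed the knockout by staining for the protein, which these RNA levels do not measure. In a mouse cell line it also assessed the guide RNA by mutations at the target site and by Western blot. The 8 neuron markers summed to between 2071 and 2208 FPKM in Ctrl and between 2048 and 2243 FPKM in Gsk3sKO. Drd2, which defines the tagged cells, had 1.58, 6.02 and 14.1 FPKM in Ctrl and 8.32, 5.96 and 7.28 FPKM in Gsk3sKO. Among markers of other cells, 3 of 5 oligodendrocyte genes (Mog, Mag and Cnp) were called lower in Gsk3sKO, against 5.2% of all gene totals. The 5 together summed to between 97.7 and 153 FPKM in Ctrl and between 98.5 and 141 FPKM in Gsk3sKO. No tested astrocyte, microglia, endothelial or erythroid marker was called. The part of the oligodendrocyte genes in the results given here was not tested. Of the precursor loci known from these cells, 3 of the 4 miR-219 loci and the miR-338 locus were listed at 0. Loci of the neuron-enriched miR-124 were low too (highest mean 0.298 FPKM), so such values do not show whether RNA of a cell type is present. In such material, fewer cells of a type, less RNA per cell and other sources of a difference cannot be told apart.

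Mature sequences of 5 loci that carry the comparison come from RefSeq (GRCm38.p6), which held 35 mature sequences for 22 of the 24 members. Seeds are in capitals, written 5′ to 3′. The lines down to miR-3091-3p belong to loci that were lower in Gsk3sKO, and those after it to loci that were higher. Mir3091 and Mir22 give both arms.
mmu-miR-8114: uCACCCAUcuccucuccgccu
mmu-miR-5121: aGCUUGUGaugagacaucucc
mmu-miR-3091-5p: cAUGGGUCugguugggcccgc
mmu-miR-3091-3p: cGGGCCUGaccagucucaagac
mmu-miR-22-5p: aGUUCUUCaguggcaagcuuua
mmu-miR-22-3p: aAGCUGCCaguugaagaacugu
mmu-miR-707: cAGUCAUGccgcuugccuacg
The 35 sequences had 34 distinct seeds. The 1 shared seed was GGGCCUG, found in miR-3091-3p above and in miR-2861, whose mature sequence follows.
mmu-miR-2861: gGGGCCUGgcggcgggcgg
No seed was shared among the loci that were higher, nor between them and those that were lower.

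The 24 loci were between 63 and 141 bases long, with a median of 79, and each had 1 listed transcript. Of these, 10 (41.7%) lay with more than 50% of their bases in an exon of another listed gene on the same strand. This compares with 29.2% of the 445 loci with some signal that were not members and 6.84% of the 716 loci at 0. Another 10 members lay in an intron on the same strand or at the edge of an exon, 2 lay only opposite another gene, and 2 overlapped no listed gene other than a microRNA locus. Of these, Mir6236 overlapped none at all, and 66 of the 141 bases of Mir1949 lie in a second listed gene of the same symbol, annotated as a microRNA. That second gene had at most 7e-06 FPKM in any library. A total of 15 members shared a stretch of at least 25 bases with another annotated transcript, and 12 shared every base. A fragment there could belong to the locus or to the other transcript, and the table holds only the outcome of the assignment. A miRBase number of 1000 or above, given to microRNAs entered later, was held by 15 of 24 members (62.5%) and by 55.6% of all 1185 loci. One member, Mir1949, is annotated as a snoRNA.

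Locus sequence shows how close the small RNA classes lie. Mir5121 (GRCm38 chr7:45126918-45126991, minus strand) is printed with the 30 bases in capitals that lie in the exon of Snord33, a C/D box snoRNA gene within Rpl13a. Its mature strand begins at base 47 of the locus, inside the capitals.
Mir5121: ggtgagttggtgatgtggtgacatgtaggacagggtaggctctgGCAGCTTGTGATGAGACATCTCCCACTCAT
Mir3069 (chr12:105031077-105031141, minus strand) lay whole within Scarna13, a guide RNA of Cajal bodies, and all its bases are in capitals for that reason.
Mir3069: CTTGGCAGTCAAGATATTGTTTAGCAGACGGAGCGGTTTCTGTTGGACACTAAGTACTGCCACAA
In the deposited table, Snord33 and Scarna13 were listed at 0 in all 6 libraries, while Mir5121 and Mir3069 were above 0 in all 6.

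A small number of loci held nearly all of the signal. The 24 members summed to 793, 702 and 303 FPKM in Ctrl and to 330, 268 and 262 FPKM in Gsk3sKO. Mir6236, Mir8114 and Mir5121 alone made up 92.8%, 94.4% and 88.7% of these sums in Ctrl and 87.2%, 84.9% and 60.5% in Gsk3sKO. The other 21 members together had 56.8, 39.4 and 34.3 FPKM in Ctrl and 42.2, 40.5 and 103 FPKM in Gsk3sKO. Only 4 loci, Mir6236, Mir8114, Mir5121 and Mir3069, exceeded 1 FPKM in every library, and 11 were above 0 in every library. Of the 144 values, 26 were listed at 0 and 100 stood for fewer than 10 fragments, and 19 of the 24 loci had a median under 10 fragments. In 10 loci a single library held over 50% of the summed level. The share was 98.8% at Mir1906-1 and 97.6% at Mir1897, both in Gsk3sKO replicate 3. It was 89.4% at Mir668, 84.2% at Mir5625 and 77.5% at Mir700, each in Ctrl replicate 1.

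**Figure D1:**
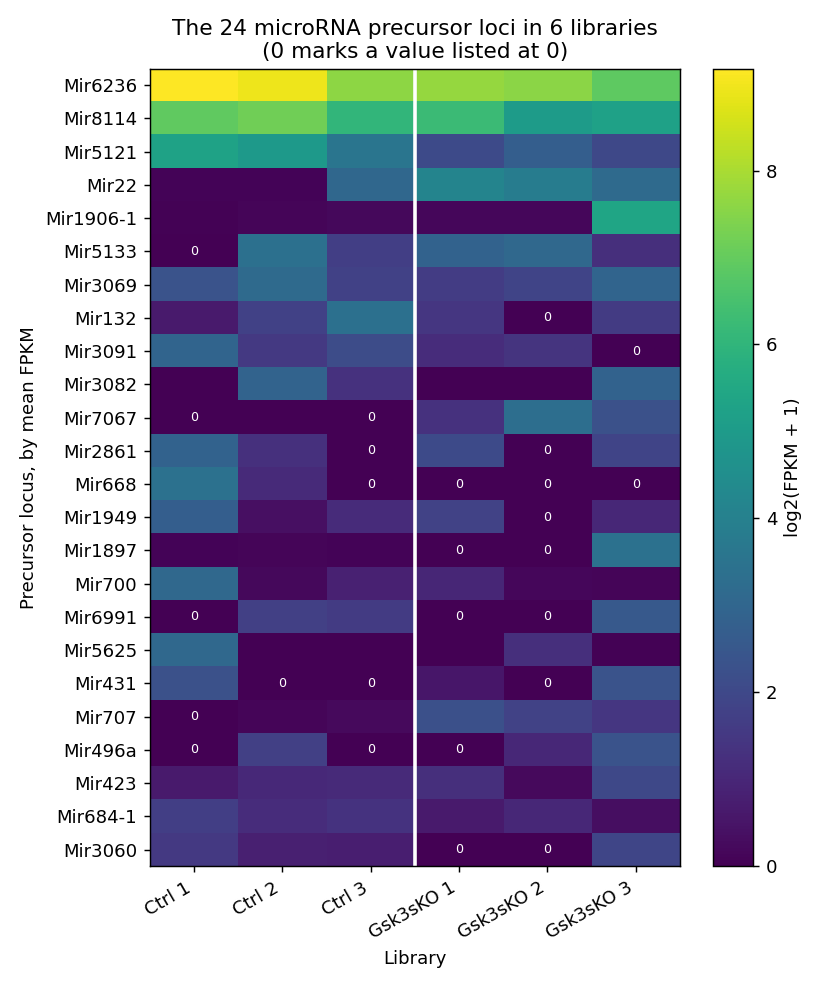
The heat map shows log2(FPKM + 1) of the 24 precursor loci (rows, ordered by mean FPKM) in the 3 Ctrl and 3 Gsk3sKO libraries (columns, divided by a white line), with 0 written where the table lists 0. The top rows, Mir6236, Mir8114 and Mir5121, are brightest in Ctrl replicates 1 and 2, and Mir1906-1 and Mir1897 stand out in Gsk3sKO replicate 3 alone.

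Gsk3sKO and Ctrl were compared by limma, fitted to log2(FPKM + 1) of all 12874 gene totals with a mean of at least 1 FPKM, and a gene total was called at an unadjusted p under 0.05. By this rule 7 of the 24 loci (29.2%) were called, against 6.56% of all gene totals. Of the 375 other gene totals under 200 bases, a class chosen after its values were seen, 35.7% were called. With both directions counted, the share of the loci was thus not above that of other short genes. The directions were unlike, since 128 of those 375 were called lower and 6 higher. Without moderation of variances, where each gene total keeps its own estimate of spread, 4 loci were called against 5.4% of all gene totals. Of these 4, Mir5121, Mir7067 and Mir707 were among the 7, and the other was Mir684-1. Of the 7, Mir5121, Mir8114, Mir6236 and Mir3091 were called lower in Gsk3sKO, the direction of 5.2% of all gene totals, and Mir22, Mir7067 and Mir707 were called higher, the direction of 1.36%. Mir3091, Mir7067 and Mir707 are among the loci that entered through 1 group only, so these counts describe the loci and do not test them. No locus had an adjusted p under 0.05 by limma, the lowest being 0.331, and 6 of 12874 gene totals (0.0466%) did. With 3 libraries against 3, the smallest p of an exact permutation test is 0.1. The groups did not overlap at 6 loci. Mir22, Mir7067 and Mir707 were higher in each Gsk3sKO library than in any Ctrl library, as were 3.71% of all gene totals. Mir5121, Mir3091 and Mir684-1 were lower in each, as were 8.3% of all gene totals. Of these 6 loci, Mir7067, Mir707, Mir3091 and Mir684-1 entered through 1 group only, which favours separation. The count of 6 therefore describes the loci and does not test them. Of the 24 log2 fold changes 15 were below 0 and 9 above 0, with a median of -0.34 against -0.06 over all gene totals. This median was 0.02 without Gsk3sKO replicate 2.

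**Figure D2:**
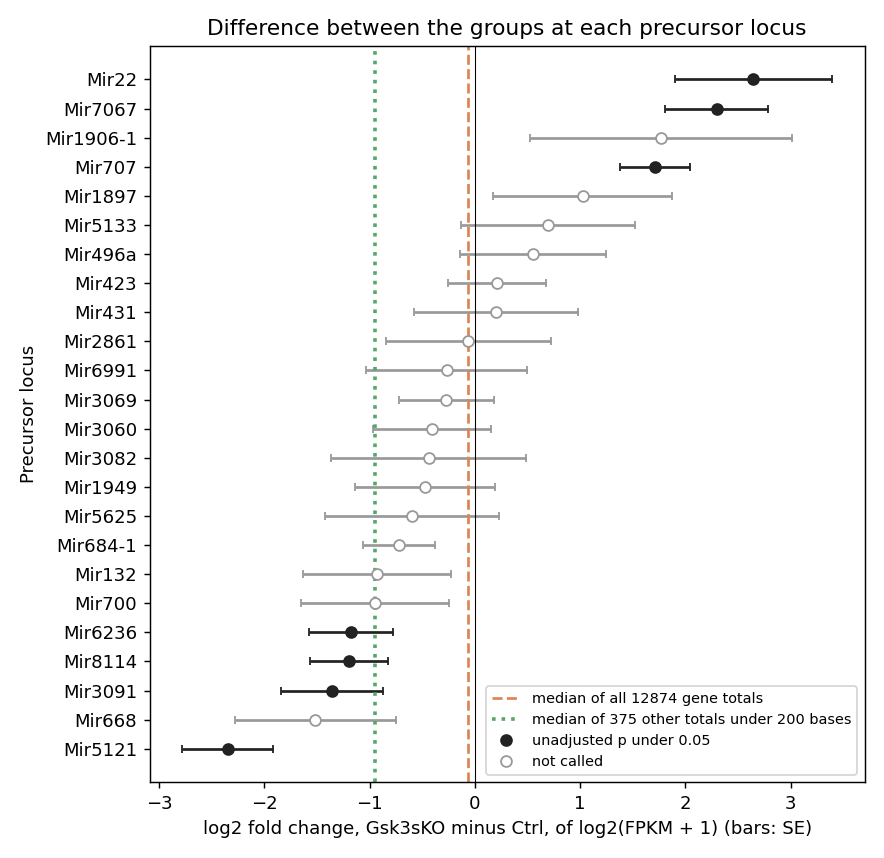
Each point is the log2 fold change (Gsk3sKO minus Ctrl, of log2(FPKM + 1)) of 1 precursor locus with its SE, filled where the unadjusted p was under 0.05. The dashed line is the median of all 12874 gene totals and the dotted line the median of 375 other gene totals under 200 bases. The called loci lie at both ends, from Mir5121 at -2.35 to Mir22 at 2.65. Mir668, at -1.51, was listed at 0 in all Gsk3sKO libraries, so its position depends on the added 1.

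Mir6236, which overlaps no other listed gene, was the most abundant locus. Its levels were 576, 490 and 194 FPKM in Ctrl and 210, 189 and 118 FPKM in Gsk3sKO. Ctrl replicates 1 and 2 stood apart, and Ctrl replicate 3 lay below Gsk3sKO replicate 1, so the groups overlapped. The log2 fold change was -1.18 (SE 0.40, limma unadjusted p = 0.0176, adjusted p = 0.688). The call was lost without Ctrl replicate 1 (unadjusted p = 0.0715), without Ctrl replicate 2 (0.0589) and without Gsk3sKO replicate 3 (0.0734). With unmoderated variances it was lost as well (0.0993).

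Mir8114 (chr1:153899926-153900036, plus strand) begins upstream of Glul, the glutamine synthetase gene, and has 93 of its 111 bases in the untranslated part of Glul exon 1. It had 122, 143 and 64.0 FPKM in Ctrl and 74.9, 32.0 and 37.1 FPKM in Gsk3sKO. Again Ctrl replicate 3 fell among the Gsk3sKO values. This gave a log2 fold change of -1.19 (SE 0.37, limma unadjusted p = 0.0117, adjusted p = 0.671), and the call was lost without moderation of variances (unadjusted p = 0.0791). Glul itself had 76.2, 101 and 73.4 FPKM in Ctrl and 71.7, 80.5 and 88.6 FPKM in Gsk3sKO, with a log2 fold change of -0.05 that was not called. The level over Mir8114 was thus 160%, 141% and 87.1% of that of Glul in Ctrl and 104%, 39.8% and 41.9% in Gsk3sKO.

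Mir5121 had the lowest log2 fold change of the 24 loci with an added 1, while with an added 0.1 Mir668 was lower (-3.43 against -2.60). It lies in Rpl13a, a protein of the large ribosomal subunit, where listed exons cover only 1 of its 74 bases, and partly in Snord33 as printed above. Its levels were 38.0, 29.8 and 10.9 FPKM in Ctrl and 3.13, 5.68 and 2.93 FPKM in Gsk3sKO. The groups did not overlap, and the values stood for about 127, 70.4 and 18.9 fragments in Ctrl and 9.58, 12.1 and 6.53 in Gsk3sKO. On the log2 scale the difference was -2.35 (SE 0.43, limma unadjusted p = 0.000546, adjusted p = 0.331), and the locus was called in each alternative run. Rpl13a had 315, 310 and 286 FPKM in Ctrl and 364, 331 and 310 FPKM in Gsk3sKO, a log2 fold change of 0.14 that was not called. Mir5121 therefore went from 12.1%, 9.63% and 3.80% of the Rpl13a level in Ctrl to 0.860%, 1.72% and 0.947% in Gsk3sKO.

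Mir3091 (chr2:180257536-180257611, plus strand) lies in an intron of Rps21, a small ribosomal subunit protein gene. It had 6.77, 1.85 and 3.39 FPKM in Ctrl and 1.24, 1.59 and 0 FPKM in Gsk3sKO. The groups did not overlap, but the gap between Ctrl replicate 2 and Gsk3sKO replicate 2 rested on about 4.50 and 3.48 fragments. The log2 fold change was -1.36 (SE 0.49, limma unadjusted p = 0.0229, adjusted p = 0.695), and the call was lost without Ctrl replicate 1 (unadjusted p = 0.0871) and without Gsk3sKO replicate 3 (0.0744). It was also lost with unmoderated variances (0.0861) and with no filter on level (0.0507). With an added 0.1 the value was -2.56. Rps21 had a log2 fold change of 0.18 and was not called.

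Other short genes were also called lower in Gsk3sKO. When the FPKM of each library was added up, genes under 200 bases held 39.9%, 38.9% and 21.8% of the Ctrl totals and 21.4%, 17.6% and 12.4% of the Gsk3sKO totals. FPKM is scaled to length, so short genes weigh more in such a sum than in fragments. These are therefore not shares of the fragments or of the RNA. Most of the summed FPKM of short genes was 1 gene, Gm23935. It held 148027 of the 242750 FPKM of short genes in Ctrl replicate 1 and 30098 of 47768 in Gsk3sKO replicate 3. Of the 375 tested gene totals under 200 bases other than the members, 128 were called lower and 6 higher, 35.7% in all, with a median log2 fold change of -0.95. Among gene totals of 200 bases or longer, 5.64% were called, with a median of -0.05. The short totals called lower included 87 of 212 snoRNAs, which guide RNA modification, 9 of 51 spliceosomal and other snRNAs, and 17 of 19 rRNA genes. Without Ctrl replicate 2 the called short totals numbered 88 rather than 134. These classes were chosen after their values were seen, and their part in the differences at Mir6236, Mir8114, Mir5121 and Mir3091 was not tested.

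Mir6236 followed 1 short gene closely. Gm23935 (chr16:11144125-11144181, plus strand, 57 bases) is annotated as a microRNA gene without a Mir symbol, and had 148027, 137332 and 53549 FPKM in Ctrl and 56753, 48541 and 30098 FPKM in Gsk3sKO. Mir6236 had 3.89, 3.57 and 3.62 FPKM per 1000 FPKM of Gm23935 in Ctrl and 3.70, 3.90 and 3.93 in Gsk3sKO. Over the 6 libraries the SD of the log2 ratio was 0.061, the lowest among 12430 genes compared, and the next gene, Gm25911, had 0.167. The levels themselves were far apart, and the longest run of letters the loci shared was 6 bases on the same strand and 5 on opposite strands. Gm23935 is printed here as the gene whose pattern over the libraries was closest.
Gm23935: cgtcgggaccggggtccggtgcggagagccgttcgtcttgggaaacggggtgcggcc
The SD to the nearest gene was 0.132 for Mir8114 (Tmbim4), followed by the snoRNA gene Gm22941 with 0.156, and 0.183 for Mir5121 (Snora68). These likenesses over 6 libraries are descriptions, since all points share the same libraries.

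**Figure D3:**
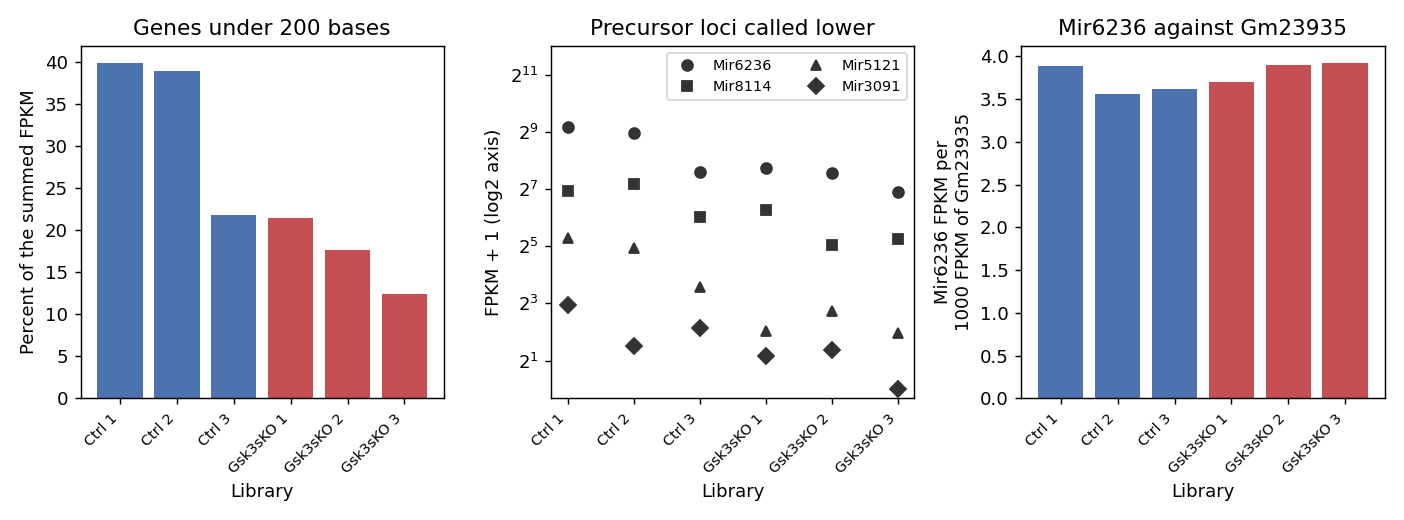
Left, genes under 200 bases as a percent of the summed FPKM of each library (Ctrl blue, Gsk3sKO red). Centre, FPKM + 1 of the 4 precursor loci called lower, on a log2 axis, where Ctrl replicates 1 and 2 are highest for Mir6236, Mir8114 and Mir5121. Right, Mir6236 per 1000 FPKM of Gm23935, which stays between 3.57 and 3.93 in all 6 libraries.

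Mir22 was called higher. The locus (chr11:75463716-75463810, plus strand) lies whole within exon 2 of Mir22hg, its host transcript, and miR-22 is a broadly expressed microRNA. It had 0.051, 0.054 and 7.34 FPKM in Ctrl and 16.4, 13.3 and 8.09 FPKM in Gsk3sKO. Ctrl replicates 1 and 2 were near 0, with less than 1 fragment each (0.220 and 0.164), while Ctrl replicate 3 with about 16.4 fragments lay just below Gsk3sKO replicate 3 with about 23.1. This was a log2 fold change of 2.65 (SE 0.75, limma unadjusted p = 0.00707, adjusted p = 0.607), the highest of the 24 loci with an added 1. It was 4.45 with an added 0.1, below Mir7067, and the call was lost without moderation of variances (unadjusted p = 0.0626, limma). Mir22hg had 3.97, 5.05 and 3.81 FPKM in Ctrl and 5.35, 5.70 and 4.59 FPKM in Gsk3sKO, a log2 fold change of 0.24 that was not called. The Mir22 locus was therefore below its host transcript in Ctrl replicates 1 and 2 and above it in the other 4 libraries.

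Mir7067 was called higher as well, and is 1 of the loci that entered through Gsk3sKO only. Its Ctrl values were 0, 0.003 and 0 FPKM, and Gsk3sKO had 1.48, 8.99 and 3.81 FPKM, for about 3.86, 16.3 and 7.23 fragments. The groups did not overlap. The log2 fold change of 2.30 (SE 0.49, limma unadjusted p = 0.00140, adjusted p = 0.394) depends on the added 1, because the Ctrl values are at or near 0, and was 5.24 with an added 0.1.

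Mir707 (chr7:44849699-44849771, plus strand) lies in the untranslated first exon of an Akt1s1 transcript, and Akt1s1 encodes an Akt substrate bound to mTORC1. It had 0, 0.086 and 0.190 FPKM in Ctrl and 3.69, 2.52 and 1.74 FPKM in Gsk3sKO. The groups did not overlap, although the Gsk3sKO values stood for only about 11.1, 5.29 and 3.80 fragments. Its log2 fold change was 1.71 (SE 0.33, limma unadjusted p = 0.000821, adjusted p = 0.362). With an added 0.1 it was 3.91, since the Ctrl values are at or near 0. Akt1s1 had 10.7, 12.2 and 11.0 FPKM in Ctrl and 13.1, 8.43 and 6.68 FPKM in Gsk3sKO, a log2 fold change of -0.29 that was not called. That total includes transcripts without the locus. The transcript named above had 2.91, 0.165 and 2.11 FPKM in Ctrl and 0.224, 2.13 and 0 FPKM in Gsk3sKO. Another listed Akt1s1 transcript over the locus had 0.407, 1.11 and 0.0253 FPKM in Ctrl and 0.561, 0 and 0 FPKM in Gsk3sKO. How fragments were divided between these and Mir707 was not tested.

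Host genes as a group were not called. The 20 members with a host on the same strand lay in 24 host genes, of which 21 were in the table and 17 were tested. None of the 17 was called (0% against 6.56% of all gene totals, lowest adjusted p by limma 0.779), and the count was 3 without Gsk3sKO replicate 1. Their log2 fold changes ran from -0.58 at Mirg to 0.39 at Meg3, with a median of -0.03. Around the called loci, the gene totals of the tested host genes and of Glul, all on the same strand, differed by at most 0.29 on the log2 scale. On the opposite strand, an exon of Teddm2 covers all 111 bases of Mir8114. Teddm2 had 0.926, 0.650 and 0.428 FPKM in Ctrl and 1.25, 1.45 and 2.39 FPKM in Gsk3sKO. Its log2 fold change was 0.68 and was not called (limma unadjusted p = 0.0678). Whether the host and the locus changed by different amounts was not tested.

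**Figure D4:**
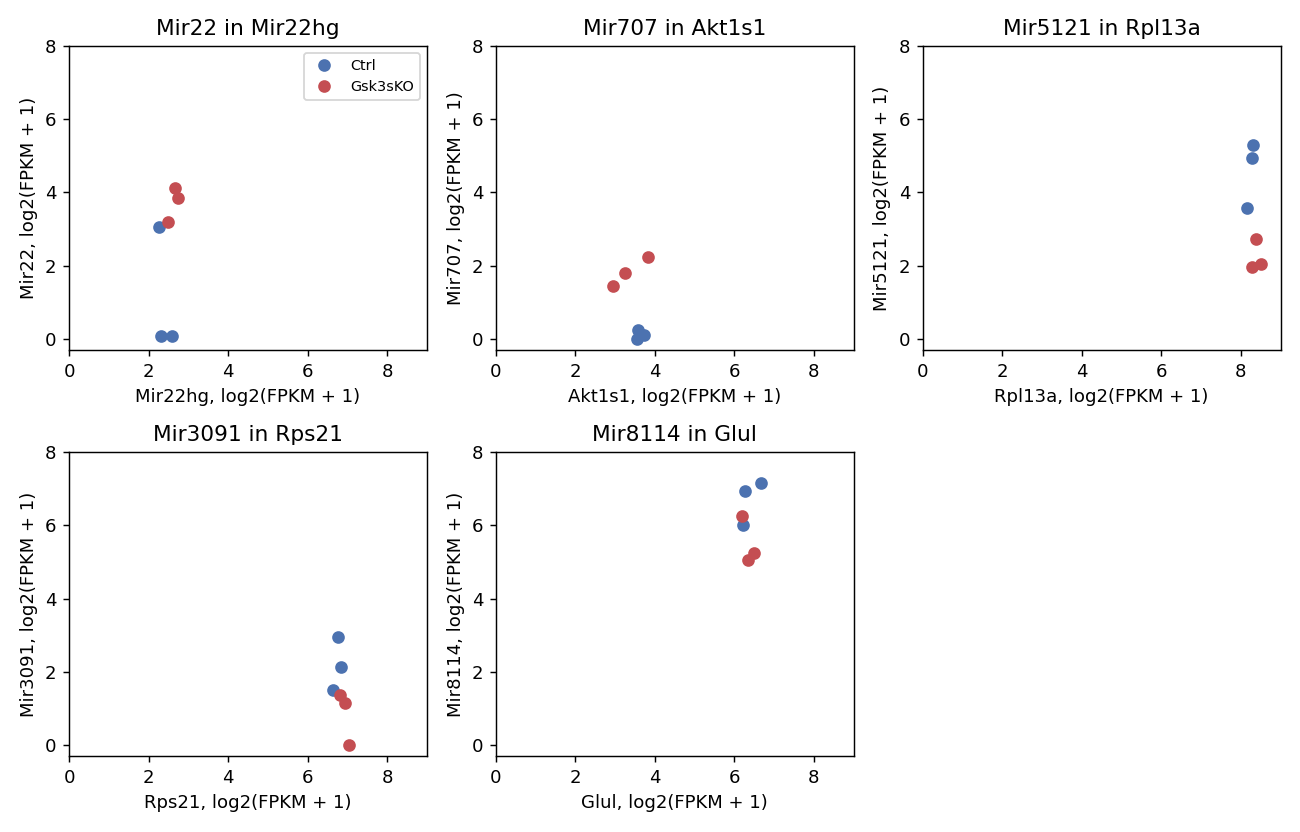
Each panel sets the level of a called precursor locus (vertical axis) against that of the gene it lies in (horizontal axis), both as log2(FPKM + 1), with 1 point per library (Ctrl blue, Gsk3sKO red). The groups part along the vertical axis for Mir22, Mir707, Mir5121 and Mir3091 and overlap on the horizontal axis in all 5 panels.

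The other 17 members were not called, with unadjusted p values between 0.0642 and 0.941 and SEs from 0.34 to 1.24 on the log2 scale. Mir684-1 came closest. It had 2.21, 1.25 and 1.53 FPKM in Ctrl and 0.597, 1.05 and 0.251 FPKM in Gsk3sKO, so the groups did not overlap (log2 fold change -0.72, SE 0.34). It shares 85 of its 86 bases with Sumo2, a gene with a mean of 56.6 FPKM, and lies opposite Dusp19 and Nup35, so reads could belong to another locus.

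The largest uncalled differences came from single libraries. Mir1906-1 was at most 0.144 FPKM in 5 libraries and 40.6 FPKM in Gsk3sKO replicate 3, which gave a log2 fold change of 1.77 with an SE of 1.24. It lies in exons of Meg3, a maternally expressed long noncoding RNA of the imprinted region on chromosome 12, and shares every base with Mir1906-2. Meg3 was also highest in that library, at 66.1 FPKM, against 11.5 and 25.9 FPKM in the other Gsk3sKO libraries and 20.4, 27.4 and 15.5 FPKM in Ctrl. Mir1897, within exons of the noncoding RNA Sox2ot, had 9.59 FPKM in Gsk3sKO replicate 3 and at most 0.0993 FPKM elsewhere (log2 fold change 1.03, SE 0.85). Sox2ot had a log2 fold change of 0.11 and was not called. At Mir668 the levels were 9.78, 1.16 and 0 FPKM in Ctrl, and all Gsk3sKO libraries were listed at 0. Mir700, partly in the coding part of Rcan3 exon 5, had 7.48 FPKM in Ctrl replicate 1 and between 0.103 and 0.979 FPKM elsewhere (log2 fold change -0.95, SE 0.70). Mir496a was listed at 0 in 3 libraries and reached 4.13 FPKM in Gsk3sKO replicate 3 (log2 fold change 0.55, SE 0.69). Mir5625, Mir1949, Mir3060, Mir6991, Mir431 and Mir423 had log2 fold changes from -0.60 to 0.21, and their highest single value was 7.47 FPKM, at Mir5625 in Ctrl replicate 1.

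Loci of middle level varied as much within groups as between them. Mir5133, in the untranslated first exon of Glce, had 0, 9.55 and 2.27 FPKM in Ctrl and 6.36, 7.52 and 1.33 FPKM in Gsk3sKO. Mir3069, the locus within Scarna13, had 4.05, 7.94 and 2.42 FPKM in Ctrl and 2.1, 2.65 and 6.77 FPKM in Gsk3sKO. Mir3082, with 1 base in listed exons of the ubiquitin ligase gene Stub1, had 0.002, 6.50 and 1.48 FPKM in Ctrl and 0.002, 0.002 and 6.45 FPKM in Gsk3sKO. On the opposite strand, listed exons of Jmjd8, with a mean of 7.37 FPKM, cover all 64 bases of Mir3082. At Mir2861, in an untranslated exon of a Cdk9 transcript, the levels were 6.37, 1.39 and 0 FPKM in Ctrl and 3.19, 0 and 2.71 FPKM in Gsk3sKO. The direction at these 4 loci turned when 1 library was left out. Their groups overlapped, and fragments behind single values ran from 0 to 23.6.

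Signal at the precursor loci of microRNAs known from neurons was low. Of 24 loci of neuron-enriched families (miR-124, miR-9, miR-128, miR-132 and others), 14 were above 0 in at least 1 library and 1, Mir132, was a member. Mir132, an activity-regulated microRNA in neurons, had 0.603, 2.42 and 9.55 FPKM in Ctrl and 1.75, 0 and 2.04 FPKM in Gsk3sKO. Ctrl replicate 3 was far above the rest, and the log2 fold change of -0.93 (SE 0.70) was not called. The highest mean among the miR-124 loci was 0.298 FPKM. None of 11 let-7 loci was a member, the highest being Mirlet7f-1 with a mean of 0.517 FPKM. Of 20 loci of the broadly expressed miR-125, miR-99, miR-100, miR-26, miR-29 and miR-30 families, none was a member either, and Mir29c was highest with 0.700 FPKM. Among 13 loci of families known from oligodendrocytes, endothelium, blood and microglia, 2 were above 0, with a highest mean of 0.0950 FPKM at Mir219a-2. Of the let-7 loci 8 were above 0 in some library, and of the broad families 9. In the imprinted miR-379 to miR-410 cluster on chromosome 12, 30 of 37 loci were above 0 in some library, and Mir668 and Mir496a were members. All 37 loci together summed to 18.2, 18.9 and 10.7 FPKM in Ctrl and 1.72, 7.55 and 15.5 FPKM in Gsk3sKO.

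The genes whose products make and use microRNAs were also compared. Of 26 genes listed, 24 were tested, and none was called (0% against 6.56% of all gene totals, lowest adjusted p by limma 0.792). Without Gsk3sKO replicate 1 the count was 1. No gene had groups that did not overlap. Drosha, the nuclear RNase, had 57.8, 45.8 and 47.0 FPKM in Ctrl and 48.9, 50.7 and 48.0 FPKM in Gsk3sKO, with a log2 fold change of -0.02 (SE 0.14). Its partner Dgcr8 had a log2 fold change of -0.09 (SE 0.19). For the exporter Xpo5 it was 0.25 (SE 0.30), the highest of the 24. Dicer1 had 4.87, 4.93 and 5.35 FPKM in Ctrl and 4.97, 4.62 and 4.56 FPKM in Gsk3sKO, with a log2 fold change of -0.08 (SE 0.20). Ago2, which holds the mature strand and can cut targets, had a log2 fold change of -0.14 (SE 0.21). The lowest value was -0.34 at Tarbp2, a Dicer1 partner, and 18 of the 24 were below 0, with a median of -0.08 against -0.06 over all gene totals. Lin28a and Lin28b, inhibitors of let-7 processing, were below the level tested, and Lin28a was listed at 0 in all libraries.

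**Figure D5:**
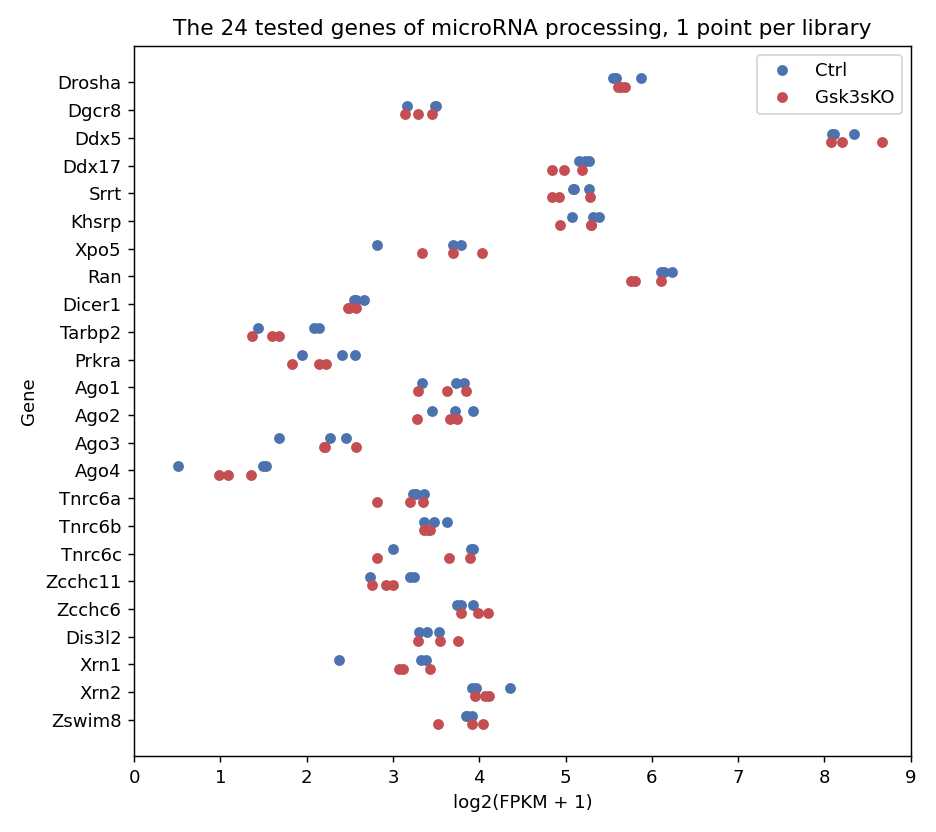
Levels of the 24 tested genes of microRNA processing and silencing as log2(FPKM + 1), with 1 point per library (Ctrl blue above, Gsk3sKO red below each line). The ranges of the groups overlap for each gene.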

How the data were processed

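The authors deposited FPKM per transcript and library, for 115220 transcripts of 47729 genes in 6 libraries. The submitters' processing notes list HISAT2 2.1.0, SAMtools 1.9, StringTie 1.3.4d and GRCm38. The sources used here give neither their settings nor whether reads were assigned by strand. Deposited columns of fold, p-value and q-value per transcript were not used. All 6 columns of values were mapped to samples by title, and 0 were left out.

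FPKM was summed by gene, and limma 3.58.1 (R 4.3.3) was fitted to gene totals with a mean of at least 1 (lmFit, then eBayes with trend, 2-sided, Benjamini-Hochberg) on log2(FPKM + 1), without covariates. The script was tested on simulated data. A gene total was called at an unadjusted p under 0.05. A value listed at 0 may be a failed estimate and gives no depth limit. Loci were placed on GENCODE M21 (GRCm38), and 114237 of the transcripts were found there. Python 3.11.15, pandas 2.3.3, scipy 1.17.1 and matplotlib 3.10.9 were used.

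The members and lists were chosen with earlier results of these data known. Values are given by rule for the 12 members of highest mean, every called member, the 5 highest and 5 lowest log2 fold changes, the loci at the threshold, family lists and host genes, and for 5 processing genes. Gene classes under 200 bases, genes of like pattern and Mir684-1 were added after their values were seen. One host gene and 1 locus sequence are not reported here. Alternatives covered the pseudocount, the filter, scaling, variance moderation, a replicate block and leaving out each library.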

Additional observations from a re-analysis of the deposited data

How the results depend on the processing

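Over the 24 loci, the count of 7 called was kept with a pseudocount of 0.1, with median ratio scaling and with the replicate number as a block, and was 6 without a filter. It was 4 (of 5 tested) with a filter at 5 FPKM and 4 without moderation of variances (3 of them among the 7), and between 6 and 8 with 1 library left out. The median log2 fold change was -0.88 with a pseudocount of 0.1 and -1.18 with the filter at 5 FPKM, where fewer loci were tested, and between -0.52 and 0.02 with 1 library left out. Called processing genes were between 0 and 1 and called host genes between 0 and 3 with 1 library left out, and 0 in the other alternatives. Called gene totals under 200 bases, a count added after the data were seen, were between 62 (without moderation) and 163 (without Ctrl replicate 3). Without moderation, Mir6236, Mir8114, Mir22 and Mir3091 were no longer called, and Mir3091 was not called without a filter. The cause was not tested.

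Of 170 values for 15 named loci under 12 alternatives, 150 kept direction and side of the threshold and 8 turned direction, all with 1 library left out. The log2 fold change then ran from -0.16 to 1.54 at Mir5133, -0.67 to 0.10 at Mir3069, -1.40 to 0.31 at Mir3082, -0.75 to 0.69 at Mir2861 and -0.11 to 1.59 at Mir1897. Mir132 was called without Ctrl replicate 1 and Mir668 without Ctrl replicate 3, where 2 loci had an adjusted p under 0.05. Libraries with the same replicate number did not deviate together over all 12874 gene totals (r = -0.03, -0.01 and -0.08). This does not settle whether the numbers pair the libraries, since single loci or classes can differ from the whole. With the replicate block, 7 loci were called. The SE was then lower at Mir6236 (0.19 rather than 0.40) and higher at Mir22 and Mir707. Called gene totals under 200 bases numbered 151 with the block rather than 134. Fragment numbers were low at most of these loci, and 100 of 144 values stood for fewer than 10 fragments.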

Other observations

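A further 1024 genes are annotated as microRNA genes without a Mir symbol, and 30 of them had a mean of at least 1 FPKM. Of these 30, 7 were called lower in Gsk3sKO and 1 higher, 26.7% in all, with a median log2 fold change of -0.95. Over all gene totals 6.56% were called, as were 35.7% of the 375 gene totals under 200 bases that these 30 belong to. Gm23935, AL626808.1, Gm24270 and Gm24187 exceeded a mean of 1000 FPKM, above every locus with a Mir symbol. AL626808.1 had 39152, 33204 and 15660 FPKM in Ctrl and 11323, 5531 and 4747 FPKM in Gsk3sKO, and its groups did not overlap. The 1 called higher was Gm25951, with 0.0503, 0.115 and 39.1 FPKM in Ctrl and 40.2, 53.4 and 29.9 FPKM in Gsk3sKO. As at Mir22, Ctrl replicates 1 and 2 were near 0 and Ctrl replicate 3 was not, and at Gm25951 the groups overlapped. These genes were named after their values were seen.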
